A study of Mus musculus with 19 samples.

Results

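10 genes that carry calcium release and reuptake in the heart muscle cell were followed through 5-hydroxymethylcytosine (5-hmC) peaks: Ryr2, Casq2, Trdn, Asph, Jph2, Cacna1c, Atp2a2, Pln, Slc8a1 and Camk2d. They were chosen by name for their role and are 10 of the 16162 protein-coding genes tested, which are those of at least 5 kb plus the 10 genes whatever their length. Cardiomyocytes (CMCs) had been isolated from C57BL/6J mice from embryos (E14.5), neonatal pups of 1 or 2 days, male adults of 2 months, and adults 1 week after an operation that narrows the aorta and loads the ventricle with pressure, transverse aortic constriction (TAC). Each of these 4 points had 2 biological replicates. No transgene or Cre was used. E14.5 and neonatal CMCs came from the ventricles, adult CMCs from the left ventricle, so that part of the heart and age cannot be told apart. An antibody to 5-hmC had been used to pull down marked DNA for sequencing (hMeDIP), and each replicate had its own peak list, called against input DNA.

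5-hmC is made from 5-methylcytosine by the TET enzymes, mostly at CpG dinucleotides, and in many tissues it lies along the bodies of transcribed genes. In each heartbeat the L-type calcium channel, whose pore is encoded by Cacna1c, admits calcium that opens the ryanodine receptor (Ryr2) of the sarcoplasmic reticulum. The calcium released is then pumped back by SERCA (Atp2a2), which phospholamban (Pln) restrains, or leaves the cell through the sodium-calcium exchanger (Slc8a1). This machinery is built up around and after birth and is remodelled in hypertrophy.

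The measure used is the percent of base pairs of a gene, from its first transcription start site (TSS) to its last transcription termination site (TTS) plus 5 kb upstream, that lies under peaks of one sample. The lists held between 104215 and 153637 peaks that covered 65.1 to 119 Mb. They hold no read numbers, so the depth behind a value is unknown, and a more deeply sequenced library can yield more peaks. Peak centres of the 2 TAC replicates coincided less often in the 10 genes than those of the other points. The distances were taken in these genes only and do not tell whether either list is displaced, and the reason was not tested. Of the peaks of both TAC replicates there, 7.02% had a peak centre of the other replicate within 150 bp and 15.8% had the nearest one 400 to 700 bp away, against 20.03% to 26.2% and 9.18% to 11.2% at the other points. The TAC cover of each of the 10 genes is therefore given per replicate. Of 8 CMC marker genes 6 or 7 carried a peak in each sample, with Actc1 at 0 in 7 samples and Nppa at 0 in 3. Of 8 fibroblast markers 3 to 6 carried one, with a median of 0 to 2.28% covered and Col3a1 at 0 in all 8 samples. The most covered of them in the young samples, Col1a1, was at 12.3% and 12.1% at E14.5, 9.82% and 12.2% neonatally, 2.30% and 6.89% in adults and 6.89% and 2.30% after TAC. Of 8 endothelial markers 7 or 8 carried a peak, with a median of 3.94% to 9.53%. The most covered of them, Pecam1, was at 18.0% and 17.0%, 16.1% and 25.5%, 14.1% and 19.4%, and 11.5% and 9.61% in the same order. Peaks of a mixed preparation do not tell a change in the share of another cell type from a change within CMCs, and the part of other cells in the values below was not tested.

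Some stretches of these genes were under peaks in every sample. Each is an overlap of 8 lists, whose median peak was 501 bp wide, so their width is limited by the method. No such count was made for all genes, and with the same number of peaks from each list it was 2. With all peaks, 10 intervals, 3242 bp in all, were covered in all 8 samples. Ryr2 held 3 of them, Cacna1c 4, and Slc8a1, Jph2 and Asph 1 each. 9 intervals lay in introns and 1 on an exon of Jph2. For each gene the widest interval covered in all 8 samples was taken or, where there was none, in 7, and the 6 widest are printed as at most 300 bases about their centre in the direction of transcription (mm10 coordinates, bases of the GRCm38 RefSeq assembly). They are shown because the mark was called there at nearly every age. CpG dinucleotides, the main place of 5-hmC, are in capitals.
Jph2 chr2:163339169-163339468 (minus strand): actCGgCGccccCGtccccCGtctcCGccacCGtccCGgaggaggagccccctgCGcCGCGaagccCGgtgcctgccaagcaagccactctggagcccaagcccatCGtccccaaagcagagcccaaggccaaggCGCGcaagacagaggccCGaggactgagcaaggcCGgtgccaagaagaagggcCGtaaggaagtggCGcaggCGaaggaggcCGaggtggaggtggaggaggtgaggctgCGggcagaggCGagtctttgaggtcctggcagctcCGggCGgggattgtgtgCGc
Camk2d chr3:126654858-126655157 (plus strand): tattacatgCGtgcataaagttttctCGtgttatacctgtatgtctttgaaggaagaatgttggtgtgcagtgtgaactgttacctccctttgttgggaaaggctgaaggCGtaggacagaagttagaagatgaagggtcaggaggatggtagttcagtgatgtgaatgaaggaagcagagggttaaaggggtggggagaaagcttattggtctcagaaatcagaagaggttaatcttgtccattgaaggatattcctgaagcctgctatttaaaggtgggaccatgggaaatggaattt
Cacna1c chr6:118950518-118950817 (minus strand): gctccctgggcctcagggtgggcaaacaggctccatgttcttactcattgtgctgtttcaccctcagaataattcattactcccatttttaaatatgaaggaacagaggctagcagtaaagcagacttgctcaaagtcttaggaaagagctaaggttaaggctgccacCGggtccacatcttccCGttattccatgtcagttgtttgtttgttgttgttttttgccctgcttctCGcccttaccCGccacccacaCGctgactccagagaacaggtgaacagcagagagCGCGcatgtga
Atp2a2 chr5:122505269-122505568 (minus strand): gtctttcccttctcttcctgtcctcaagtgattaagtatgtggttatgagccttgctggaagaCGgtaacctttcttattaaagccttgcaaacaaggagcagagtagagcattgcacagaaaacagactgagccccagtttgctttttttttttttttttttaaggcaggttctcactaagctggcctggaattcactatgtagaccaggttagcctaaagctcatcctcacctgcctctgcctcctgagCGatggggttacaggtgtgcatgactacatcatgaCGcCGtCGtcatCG
Asph chr4:9647023-9647274 (minus strand): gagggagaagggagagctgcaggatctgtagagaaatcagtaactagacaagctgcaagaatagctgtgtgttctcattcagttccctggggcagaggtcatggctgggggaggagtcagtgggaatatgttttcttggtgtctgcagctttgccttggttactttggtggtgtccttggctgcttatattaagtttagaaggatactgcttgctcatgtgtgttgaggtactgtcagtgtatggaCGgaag
Ryr2 chr13:11766313-11766562 (minus strand): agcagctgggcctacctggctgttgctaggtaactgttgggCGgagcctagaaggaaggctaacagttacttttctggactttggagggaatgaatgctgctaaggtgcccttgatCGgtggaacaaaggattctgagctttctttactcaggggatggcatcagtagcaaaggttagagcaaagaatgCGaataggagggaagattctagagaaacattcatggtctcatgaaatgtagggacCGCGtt

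The Jph2 stretch held 25 CpGs in 300 bases, 236 of them on an exon, and lay 58.7 kb past the TSS. The intronic stretches of Cacna1c and Ryr2 held 7 CpGs in 300 bases and 5 in 250, and that of Asph 1 in 252. The Camk2d and Atp2a2 stretches were covered in 7 samples, the exception being TAC replicate 2. The Atp2a2 stretch lay upstream, 3.19 kb before the TSS, in a gene whose TSS itself was bare.

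Across the 10 genes the neonatal point had the widest cover, and the CMC markers had the same maximum. The median over the genes was 9.65% and 6.26% at E14.5, 20.1% and 20.1% neonatally, 9.24% and 12.0% in adults and 10.8% and 6.08% after TAC, while the median over all genes tested stayed between 3.09% and 4.82%. The 8 CMC markers had a median of 15.7% and 21.3% at E14.5, 31.9% and 34.8% neonatally, 11.4% and 23.7% in adults and 13.2% and 7.41% after TAC. From E14.5 to the neonatal point, 8 of 10 genes were higher without overlap of the replicates (all but Pln and Trdn), against 25.4% of all genes tested, and 0 were lower, against 6.39%. From the neonatal to the adult point, 7 were lower (Ryr2, Atp2a2, Slc8a1, Cacna1c, Jph2, Camk2d and Asph), against 21.2%, and 0 were higher, against 14.8%. From adult to TAC, 5 were lower (Atp2a2, Slc8a1, Cacna1c, Jph2 and Camk2d), against 22.9%, and 0 were higher, against 6.05%. This last step depended on scale. Once each value was divided by the mean percent covered of all genes in its sample, 2 genes were lower (Atp2a2 and Jph2) and 3 higher (Ryr2, Trdn and Asph), against 11.1% and 16.2% of all genes. On that scale the first step kept 7 higher, against 15.1%, and the second 7 lower, against 24.7%. Leaving out a sample can only make non-overlap more frequent, in all genes as in these 10, so the shares above do not apply to the next counts. Without TAC replicate 2, the same 5 genes lay below both adult replicates and 2 lay above (Trdn and Asph).

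**Figure D1:**
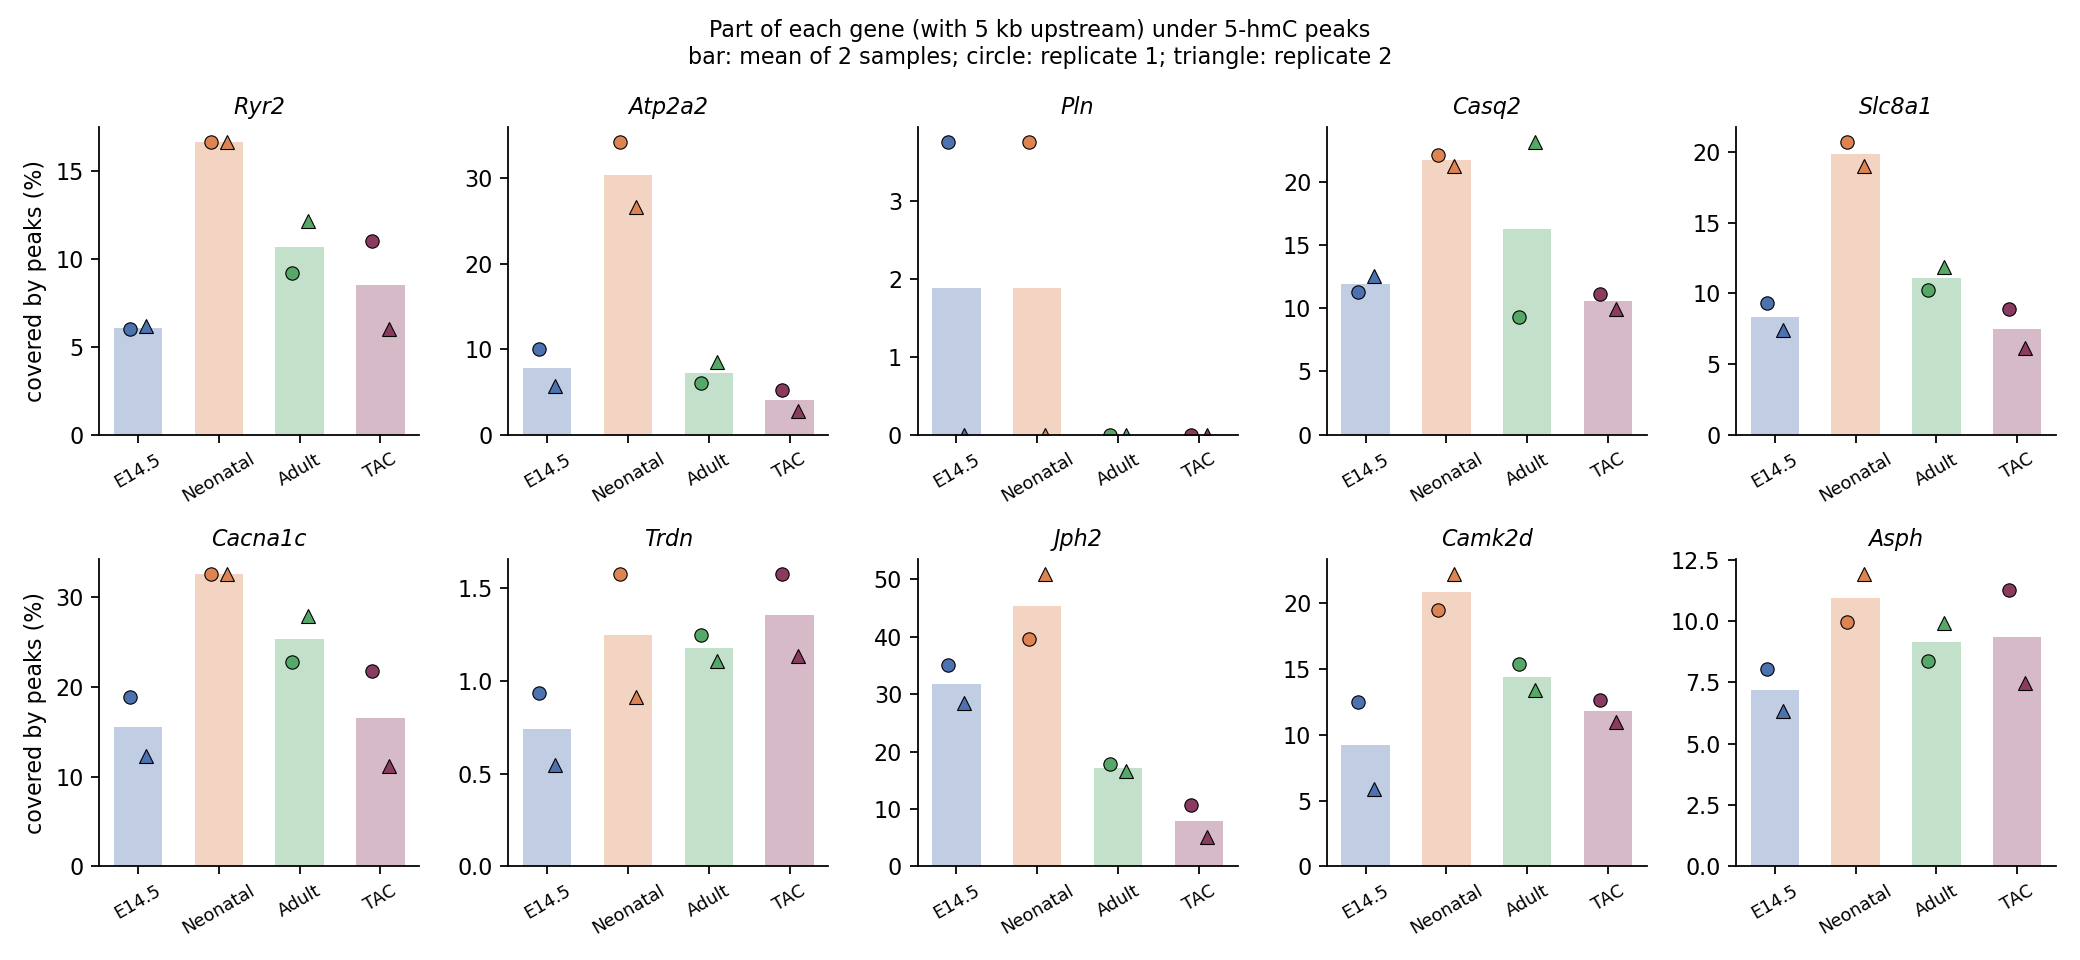
Percent of each gene with its 5 kb upstream that lay under 5-hmC peaks (y axis, own scale per gene) at the 4 points (x axis). Bars are means of 2 replicates, circles replicate 1 and triangles replicate 2. In 8 genes both neonatal values lie above both E14.5 values, Pln has a value above 0 in 2 samples and Trdn stays under 2% in all.

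**Figure D2:**
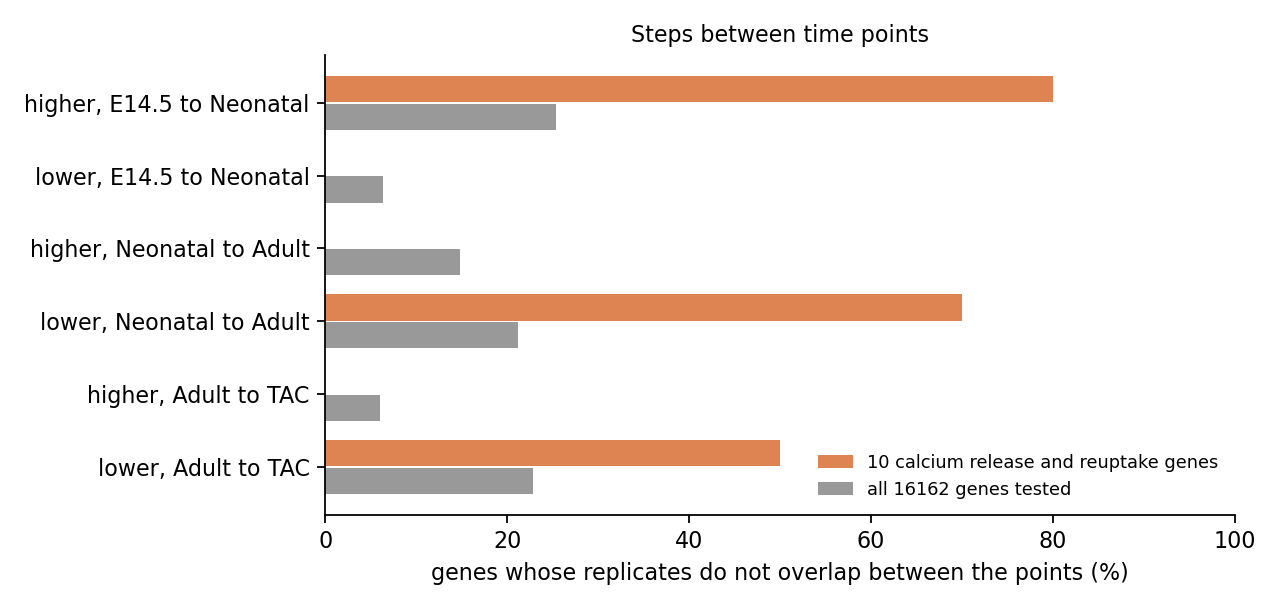
Share of genes (x axis, percent) with no overlap of replicates from point to point, for each step and direction (y axis), in the 10 genes and in all 16162 genes tested. The largest shares are 8 of 10 higher from E14.5 to the neonatal point and 7 of 10 lower from there to the adult.

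Most of these genes are long, and long genes changed more often. Among genes of at least 50 kb, 33.4% were higher in the first step (7 of the 8 such members), 36.4% lower in the second (6 of 8) and 27.9% lower in the third (4 of 8). An exact permutation test, one-sided for the spread between points, ran over the 105 ways to sort the 8 samples into 4 pairs. It gave a p of 0.05 or less for 5 of 10 genes, against 7.73% of all genes and, among genes of at least 50 kb, for 4 of 8 against 12.6%. The 5 became 3 with the same number of peaks from each list, 2 without adult replicate 2, and 3 without either E14.5 replicate, neonatal replicate 2 or TAC replicate 2. Jph2 kept a p of 0.05 or less under every alternative run. No gene passed Benjamini-Hochberg adjustment over all 16162 genes, whose lowest adjusted p was 0.579. The smallest p of this design is 0.00952. For 2 against 2 samples the smallest exact two-sided p is 0.3333, so single steps are described by overlap alone. Neonatal and TAC cover were compared directly as well. 7 genes were lower in TAC, against 29.6%, and 0 were higher, against 5.85%.

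Ryr2, the calcium release channel itself (chr13:11553103-12106945, minus strand, mm10, 554 kb), was covered over 6.01% and 6.18% at E14.5, 16.7% and 16.7% neonatally, 9.19% and 12.2% in adults and 11.0% and 6.03% after TAC. The neonatal mean of 16.7% was 2.74 times the E14.5 mean of 6.09% ± 0.120 (SD, n = 2), and both adult values lay between the E14.5 and the neonatal ones. The exact permutation p over the 4 points was 0.0476. It became 0.133 with the same number of peaks from each list and 0.0762 to 0.105 without either E14.5 replicate, either neonatal replicate or adult replicate 2. The place of the peaks along the gene differed too. In the first 20% of the gene, next to the TSS, E14.5 covered 13.2% and 12.6%, the neonatal point 31.6% and 24.3%, the adult 1.81% and 3.95% and TAC 4.55% and 4.77%. In the last 20% the values were 0.905% and 1.36%, then 6.94% and 8.97%, then 9.12% and 12.5%, then 8.91% and 5.46%. On the TSS end the adult values lay far below the neonatal ones, and on the TTS end they lay just above them. Within 1 kb of the TSS no E14.5 replicate had a peak, both neonatal replicates covered 631 and 614 bp and both adult replicates 741 and 562 bp, all of it upstream of the TSS, TAC replicate 1 covered 0 bp and TAC replicate 2 449 bp on the gene side. These ends and the other stretches described below were chosen after their values were seen and carry no test.

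Casq2 encodes cardiac calsequestrin, which binds calcium inside the sarcoplasmic reticulum (chr3:102086415-102146514, plus strand, 60.1 kb). Its cover was 11.3% and 12.6% at E14.5, 22.1% and 21.2% neonatally, 9.29% and 23.1% in adults and 11.1% and 9.97% after TAC. The adult replicates spanned the neonatal range, so no fall could be read, and the exact permutation p was 0.410. The start of the gene differed more. In the 5 kb upstream the E14.5 replicates covered 2213 and 2375 bp, the neonatal 3130 and 3291 bp, the adult 501 and 0 bp and TAC 0 and 643 bp. At E14.5 a peak lay over the promoter, reaching 662 bp past the TSS in replicate 1 and ending at -61 bp from it in replicate 2, while in both neonatal replicates the upstream peak ended at -879 and -886 bp and within 1 kb of the TSS no adult or TAC sample had any. The 250 bases before this TSS (RefSeq promoter table, GRCm38.p6), the stretch uncovered after E14.5, held 5 CpGs, in capitals. This promoter was chosen for print after its values were seen.
Casq2 chr3:102086165-102086414 (plus strand): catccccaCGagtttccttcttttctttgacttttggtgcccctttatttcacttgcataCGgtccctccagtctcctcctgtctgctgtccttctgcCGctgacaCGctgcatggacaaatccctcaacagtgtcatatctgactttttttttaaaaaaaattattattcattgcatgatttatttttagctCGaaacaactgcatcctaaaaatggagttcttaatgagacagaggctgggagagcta

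Trdn and Asph encode the partners that join calsequestrin to the release channel, triadin and, among the products of the Asph locus, junctin. Trdn (chr10:33083483-33476709, plus strand, 393 kb) was nearly bare. It was covered over 0.934% and 0.546% at E14.5, 1.58% and 0.914% neonatally, 1.25% and 1.11% in adults and 1.57% and 1.13% after TAC. Neighbouring points overlapped, while both E14.5 values lay below all adult and TAC values (exact permutation p of 0.390). It had the fewest CpGs of the 10 genes, 0.387 per 100 bp, and the most repeats, 44.1% of its bases. The bases under its peaks were 41.4% to 63.1% repeats, above the share of the gene in 6 of 8 samples. Its few peaks lay at a mean position of 64.6% and 77.8% of the way from TSS to TTS at E14.5 and of 38.2% and 34.4%, 25.7% and 33.3%, and 38.0% and 56.3% at the later points, nearer to the TSS at the later points.

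Asph (chr4:9449085-9669344, minus strand, 220 kb) was covered over 8.04% and 6.34% at E14.5, 9.98% and 11.9% neonatally, 8.37% and 9.91% in adults and 11.3% and 7.47% after TAC (exact permutation p of 0.314). Its neonatal to adult difference was small, and with the same number of peaks drawn from each list the adult replicates lay above the neonatal ones. Its transcripts start and end at several places, and neighbouring stretches between them differed in course. The 15.1 kb that follow the start at 25.6 kb were covered over 19.9% and 11.7% at E14.5, 30.4% and 48.4% neonatally, 9.24% and 11.5% in adults and 10.9% and 2.22% after TAC. In the next 7.74 kb the order of the neonatal and adult points was the other way round, with 21.6% and 0.246%, 16.3% and 19.3%, 31.7% and 36.1%, and 36.3% and 16.8%.

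Jph2 encodes junctophilin, which holds the reticulum against the transverse tubule where the channel and the ryanodine receptor face each other (chr2:163336242-163397993, minus strand, 61.8 kb). It had the most cover of the 10 genes at E14.5 and the neonatal point, and the largest neonatal to adult difference, -28.1 percentage points. The values were 35.1% and 28.5% at E14.5, 39.6% and 51.0% neonatally, 17.8% and 16.6% in adults and 10.6% and 5.07% after TAC. No 2 neighbouring points overlapped, and the exact permutation p was 0.00952, the smallest possible. One neonatal peak was 10257 bp wide. Peak centres per 10 kb gave the opposite direction for the first step alone, with fewer and wider neonatal peaks, 16 and 16 against 17 and 19 at E14.5. In the first 20% of the gene the neonatal replicates covered 28.8% and 39.4%, the adult 5.95% and 6.53% and both TAC replicates 0. The last 20% was lower at each of these steps too, with 58.1% and 89.7%, then 45.4% and 35.8%, then 17.2% and 11.2%.

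Cacna1c, the pore of the L-type channel through which calcium enters (chr6:118587240-119196409, minus strand, 609 kb), was covered over 18.9% and 12.2% at E14.5, 32.6% and 32.5% neonatally, 22.8% and 27.8% in adults and 21.7% and 11.2% after TAC. The neonatal replicates lay above all others, with an exact permutation p of 0.0857. In the second step the direction held for base pairs covered, but peak centres per 10 kb were higher in the adult. RefSeq gives the gene 3 starts, the outermost and ones at 87.9 kb and 438 kb. Dcp1b, transcribed from the opposite strand, overlaps 26157 bp of the window around the outermost start, so peaks there cannot be given to one of the genes. Within 1 kb of the start at 87.9 kb no E14.5 or neonatal sample had a peak, the adult replicates covered 513 and 752 bp and TAC 866 and 333 bp. At the start at 438 kb these were again 0 in the 4 young samples, 260 and 608 bp in the adult and 702 and 0 bp in TAC. The 171 kb from there to the TTS were covered over 7.72% and 3.65%, 11.2% and 11.7%, 18.6% and 20.7%, and 15.5% and 6.70%, so this end of the gene was highest in the adult, whereas the 87.9 kb between the first and the next start were highest in the neonatal replicates, at 35.0% and 31.0% against 11.7% and 15.9% in the adult. The 250 bases before the start at 87.9 kb are shown because peaks appeared beside them and not on them. They held 48 CpGs, and the nearest covered base lay 134 bp past the start, in TAC replicate 1. This promoter too was picked after its values were seen.
Cacna1c chr6:119108496-119108745 (minus strand): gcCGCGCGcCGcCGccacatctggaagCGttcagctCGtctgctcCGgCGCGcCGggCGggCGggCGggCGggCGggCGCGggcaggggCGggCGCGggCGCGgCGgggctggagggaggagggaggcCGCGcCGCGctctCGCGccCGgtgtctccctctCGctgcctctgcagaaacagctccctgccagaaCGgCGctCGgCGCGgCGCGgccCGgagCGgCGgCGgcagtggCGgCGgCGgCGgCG

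Atp2a2, which encodes the pump that returns calcium to the reticulum (chr5:122453513-122502225, minus strand, 48.7 kb), had the largest ratio of neonatal to E14.5 cover of the 10 genes. It was covered over 9.999% and 5.67% at E14.5, 34.2% and 26.6% neonatally, 5.99% and 8.54% in adults and 5.25% and 2.79% after TAC. The neonatal mean of 30.4% ± 5.40 (SD, n = 2) was 3.88 times that of E14.5, 7.84% ± 3.06, and the adult mean was 0.239 times the neonatal one (exact permutation p over the 4 points of 0.0476). This p became 0.0571 to 0.105 without any one of E14.5 replicate 1, either adult replicate and either TAC replicate. The peaks gathered at the far end. The last 20% of the gene was covered over 26.3% and 17.2% at E14.5, 75.2% and 78.2% neonatally, 10.3% and 25.2% in adults and 5.14% and 10.2% after TAC. Within 1 kb of the TSS all 8 samples were at 0 bp, and the first 20% held 1 peak, in E14.5 replicate 2.

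Pln, which encodes the small protein that slows the pump (chr10:53337686-53345999, plus strand, 8.31 kb), carried no peak between TSS and TTS in any sample. A single peak of 501 bp lay in its 5 kb upstream in E14.5 replicate 1 and in neonatal replicate 1, 3.76% of the window each. The window lies wholly inside Cep85l, transcribed from the opposite strand, so that the peak cannot be given to one of the genes.

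Slc8a1, the exchanger that takes calcium out of the cell (chr17:81373105-81738387, minus strand, 365 kb), was covered over 9.30% and 7.40% at E14.5, 20.7% and 19.0% neonatally, 10.3% and 11.9% in adults and 8.87% and 6.13% after TAC (exact permutation p of 0.0381). Camk2d, the kinase that phosphorylates both the release channel and phospholamban (chr3:126596951-126846326, plus strand, 249 kb), was covered over 12.5% and 5.90%, 19.4% and 22.2%, 15.3% and 13.4%, and 12.6% and 11.0% in the same order (exact permutation p of 0.0381). The p of Slc8a1 became 0.143 with relative coverage and 0.0762 without adult replicate 2. That of Camk2d became 0.267 with relative coverage, 0.114 with the same number of peaks, and 0.0571 to 0.114 without any one of E14.5 replicate 2, neonatal replicate 2, either adult replicate and either TAC replicate. Both followed the same order of points after birth, neonatal above adult above TAC with no overlap. Around the TSS they were bare, with 0 bp within 1 kb in all 8 samples for Camk2d and in 7 for Slc8a1. In Camk2d the first 20% of the gene was the more covered end in the neonatal replicates, at 36.2% and 38.6%, against 6.35% and 5.84% in the last 20%.

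Where along the gene the peaks lay was tested on the mean position of the covered base pairs, 0 being the TSS and 100 the TTS. This needs such base pairs between TSS and TTS in all 8 samples, which 7229 genes had, 9 of the 10 among them. The median over the 9 genes was 42.0 and 43.8 at E14.5, 40.2 and 41.4 neonatally, 56.4 and 56.0 in adults and 56.9 and 51.7 after TAC. Over the 7229 genes it stayed between 46.8 and 49.5. From the neonatal to the adult point, 7 of 9 genes had their peaks nearer to the TTS without overlap (Ryr2, Atp2a2, Casq2, Slc8a1, Cacna1c, Jph2 and Camk2d), against 23.5% of the genes tested. Ryr2 went from 35.2 and 41.4 to 60.2 and 57.1, and Casq2 from 44.5 and 36.2 to 72.1 and 57.3. Over the 4 points, 5 of 9 genes (Ryr2, Casq2, Cacna1c, Trdn and Jph2) had an exact permutation p of 0.05 or less, against 7.40% of the 7229. It was 0.0190 for Ryr2 and Trdn and 0.0381 for the other 3, and none passed adjustment over the 7229 genes (lowest adjusted p of 0.560). No share among genes of at least 50 kb was computed for position. The test takes no direction. Trdn is among the 5 with peaks nearer to the TSS at the later points, opposite to the other 4. The count fell to 3 with equal numbers of peaks and to 2 or 3 without any one of E14.5 replicates 1 and 2, neonatal replicates 1 and 2, adult replicate 2 and TAC replicate 2, and of the 5 genes Ryr2 had a p of 0.05 or less under every alternative run. Counted separately, the TSS side of the gene up to its midpoint was lower in the adult than in the neonatal replicates in 8 of 10 genes, against 17.6% of all genes, and the TTS side in 4 (Atp2a2, Slc8a1, Trdn and Jph2), against 15.0%.

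**Figure D3:**
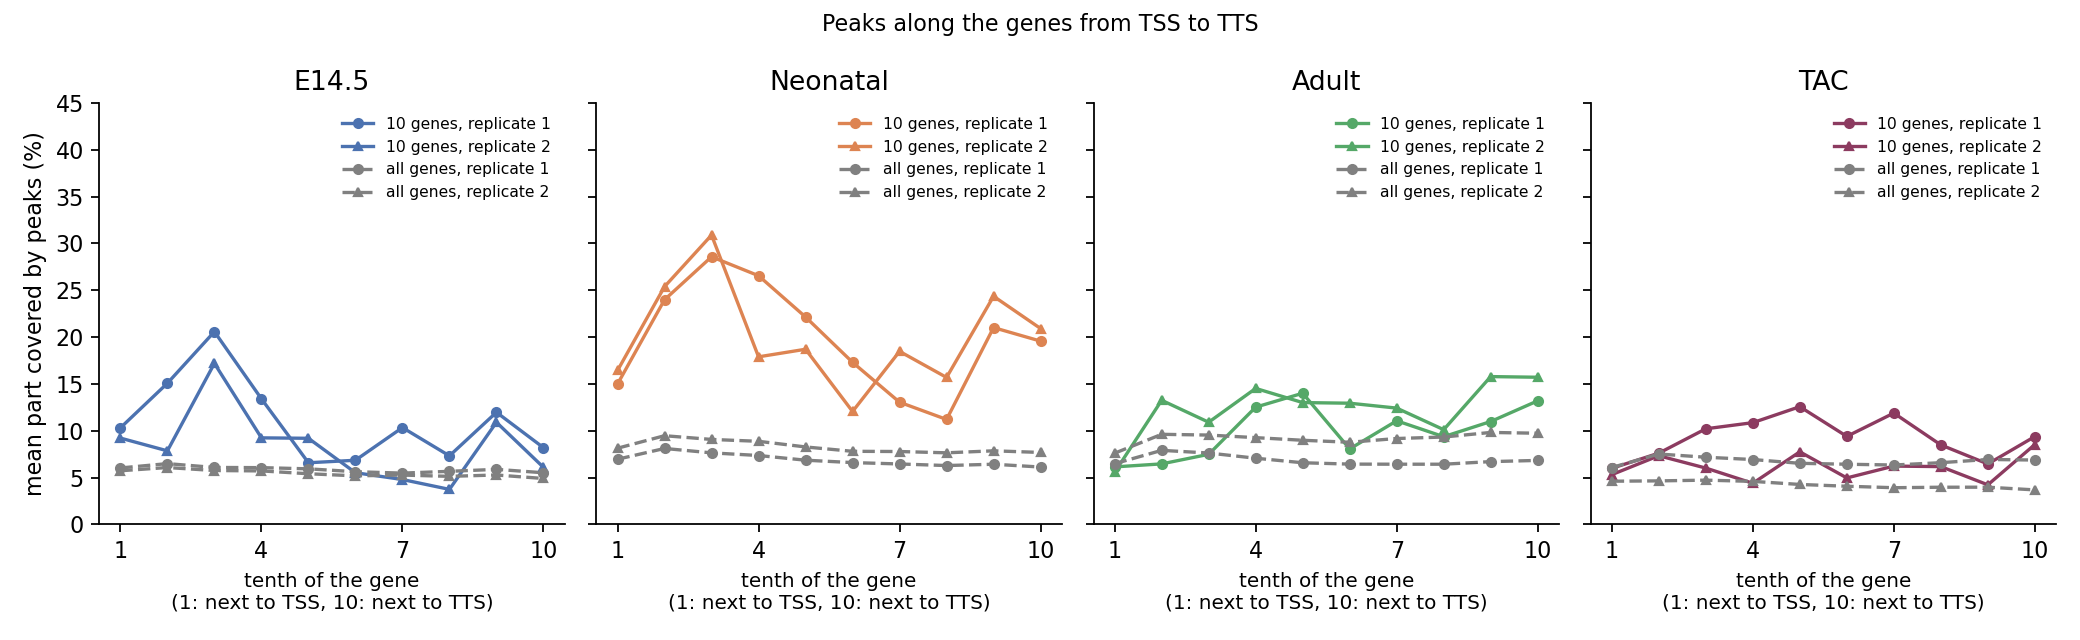
Mean percent covered (y axis) in each 10% step of the gene from TSS to TTS (x axis) for the 10 genes (solid) and all genes tested (dashed), one panel per point and one line per replicate. The mean over the 10 genes is highest in the third step at E14.5 (20.6% and 17.2%) and the neonatal point (28.6% and 30.9%). That step is at 7.48% and 10.9% in the adult, while all genes together are nearly level. A lower neonatal rise lies in step 9 (21.0% and 24.4%). Taken singly, Casq2, Cacna1c and Camk2d have their highest neonatal mean in step 3, Atp2a2 in step 10, and the other genes with peaks in other steps.

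**Figure D4:**
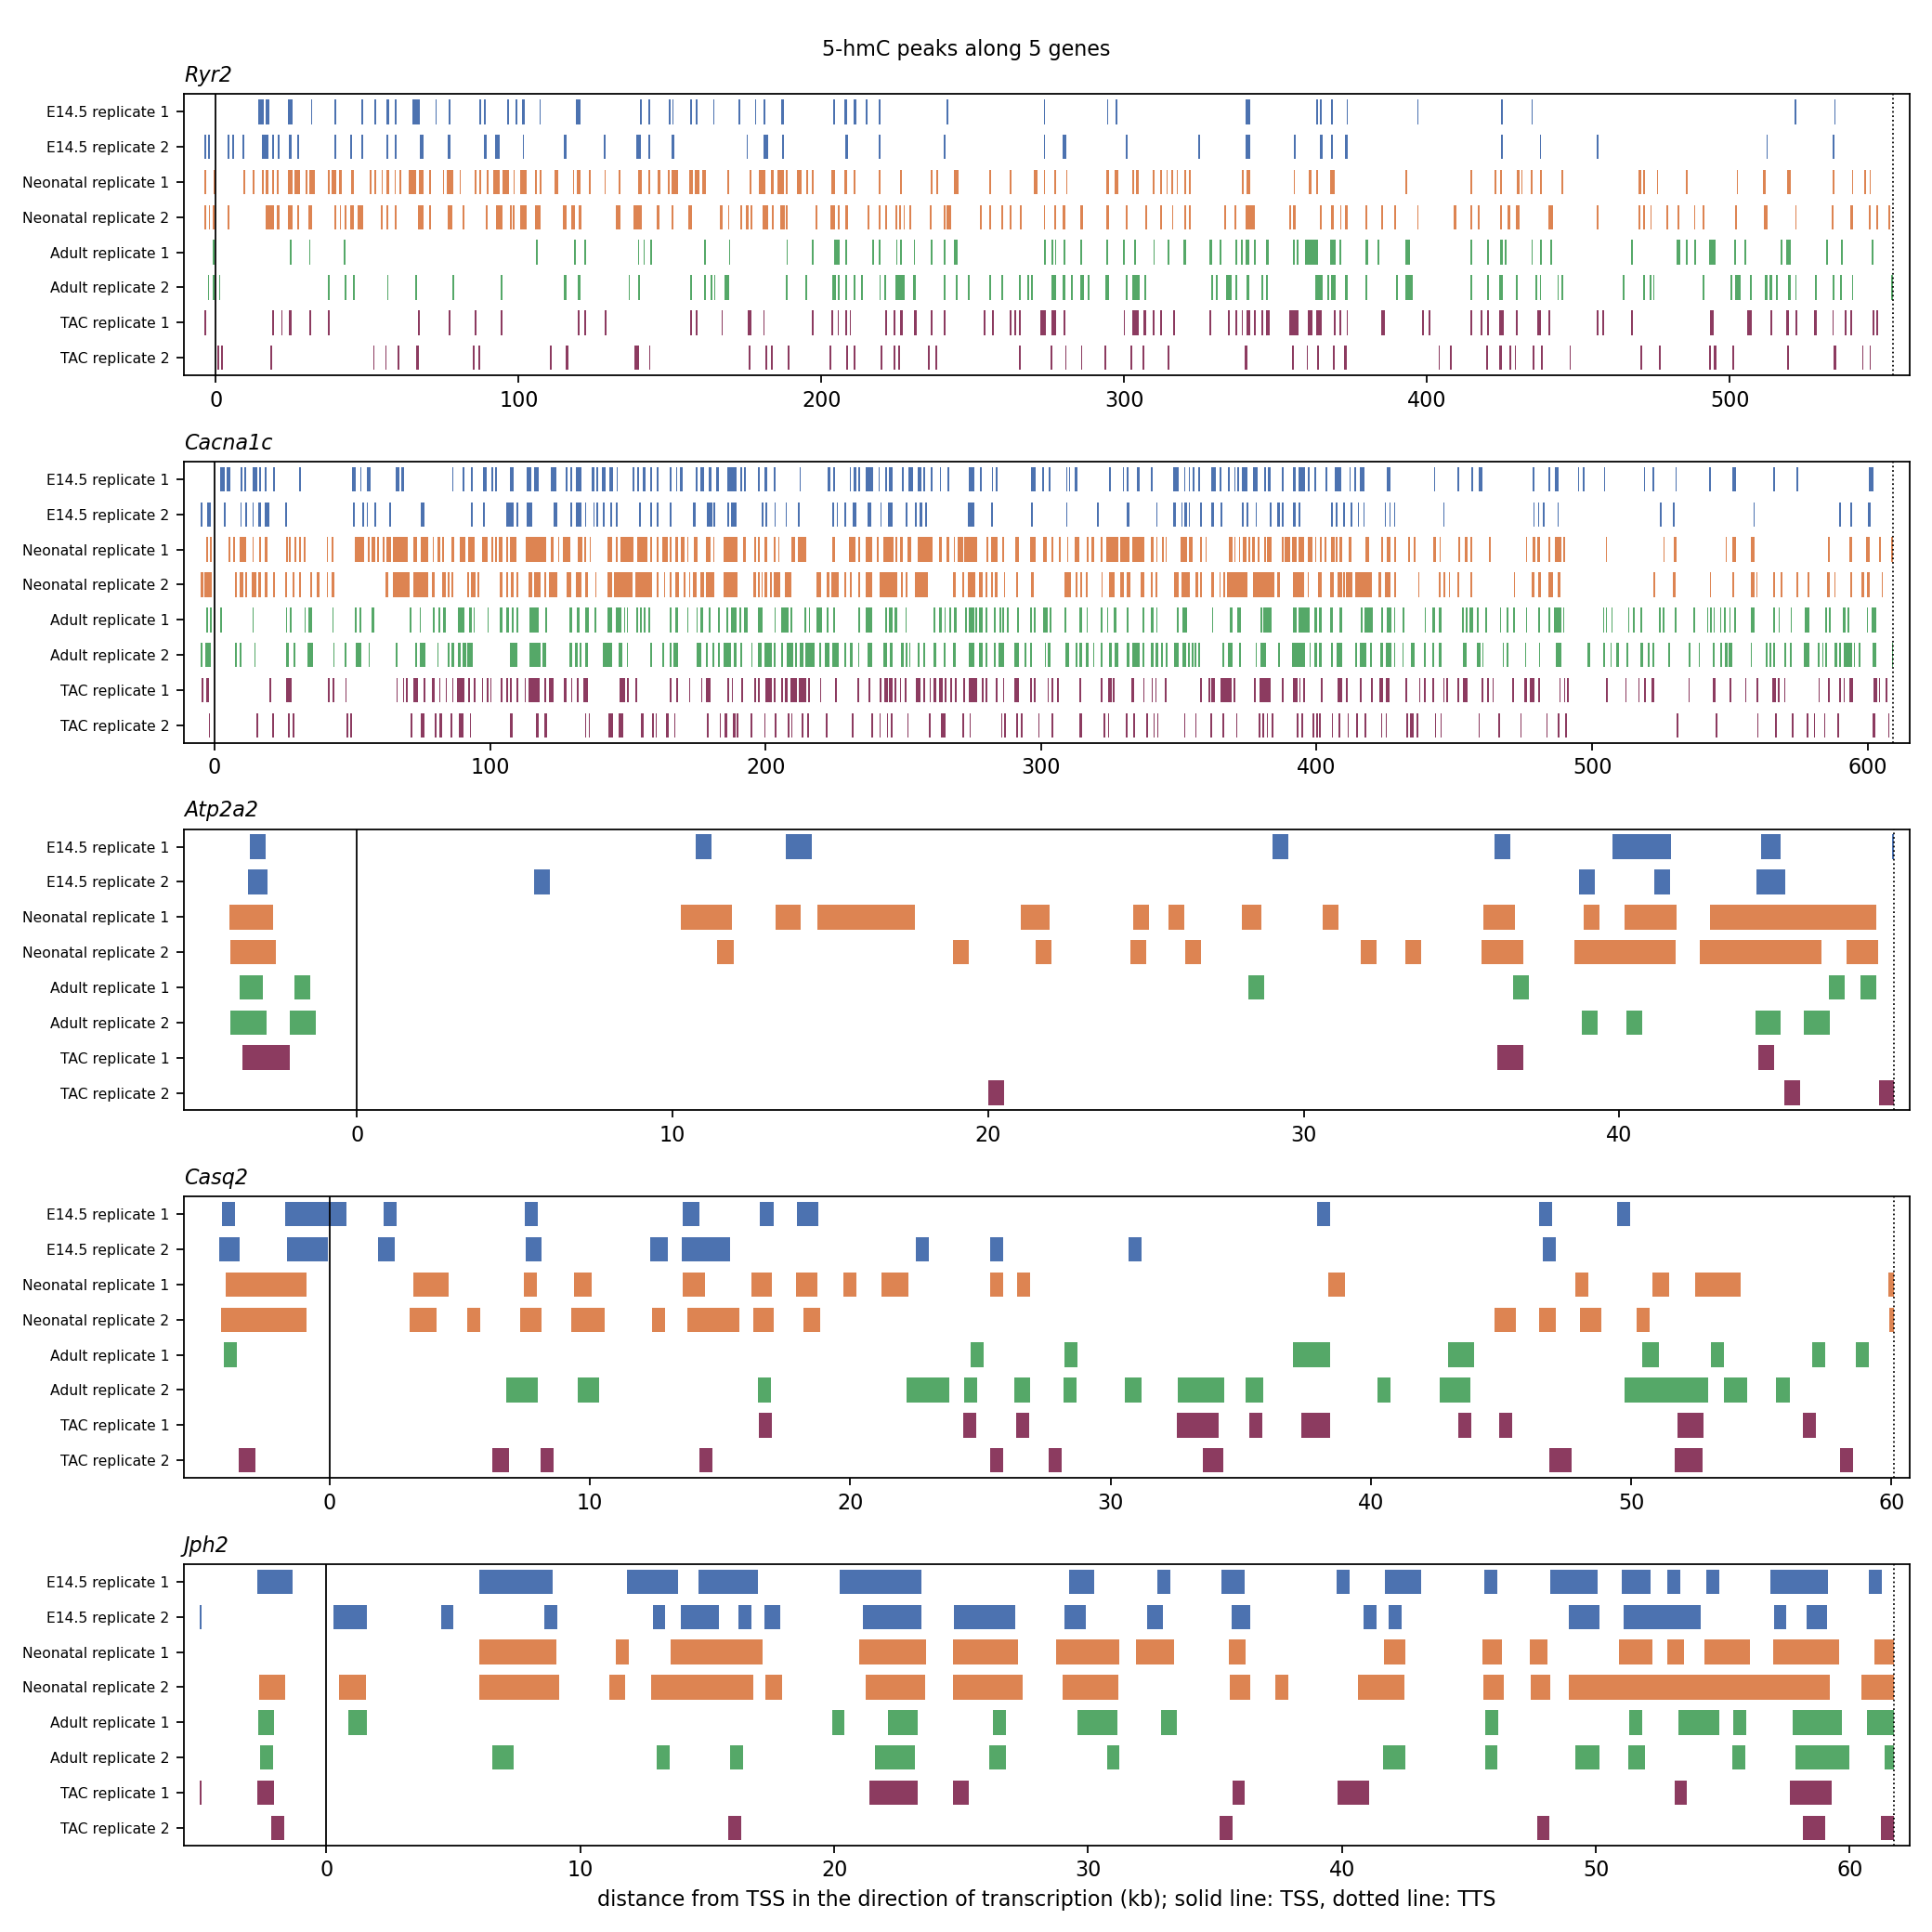
Peaks of the 8 samples (rows, coloured by point) along Ryr2, Cacna1c, Atp2a2, Casq2 and Jph2, in kb from the TSS (x axis) with the TTS as a dotted line. In Ryr2 and Casq2 the peaks near the TSS thin out from the neonatal to the adult rows, and in Atp2a2 the neonatal rows fill the end of the gene.

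Base pairs covered in both replicates of a point formed 145 regions in the 10 genes at E14.5, 317 at the neonatal point, 229 in the adult and 107 in TAC, and spanned 92.6, 280, 147 and 42.7 kb. 9 genes held such a region at E14.5, the neonatal and the adult point, and 7 at every point, with Atp2a2 and Trdn lacking one in TAC. No share over all genes was computed for these counts, so they cannot be read as particular to the 10 genes. The median Jaccard index of the replicates, the base pairs shared as a fraction of those covered by either, was 0.253, 0.372, 0.200 and 0.0803. The neonatal common base pairs of the 9 genes were then looked up at the other points. Those covered in at least 1 adult replicate were 65.5% in Cacna1c, 56.2% in Slc8a1, 54.0% in Camk2d, 53.2% in Asph, 46.4% in Jph2, 39.0% in Atp2a2, 35.6% in Ryr2, 25.9% in Casq2 and 22.4% in Trdn. Those covered in both adult replicates ranged from 0 in Casq2 to 32.3% in Cacna1c. In at least 1 E14.5 replicate the share ran from 37.9% in Atp2a2 to 79.8% in Jph2, and in both from 10.6% in Slc8a1 to 39.0% in Asph.

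Genes with more CpGs had more cover. Across the 10 genes, Spearman's rho between CpGs per 100 bp and percent covered was 0.855 and 0.661 at E14.5, 0.915 and 0.879 neonatally, 0.576 and 0.588 in adults and 0.418 and 0.370 after TAC. These points share a library and its antibody, and are given as a description. Gene length gave -0.127 to 0.455. The extremes were Jph2 with 1.59 CpGs per 100 bp and Trdn with 0.387. Bases under peaks were richer in CpG than the gene around them in 8 to 10 of the genes with peaks in 7 samples, and in 5 of 9 in TAC replicate 2. Exons were covered more than introns in 4 to 6 of 10 genes, depending on the sample. Neither the CpG count nor the exon count was made over all genes, so they cannot be read as particular to the 10 genes. Within 1 kb of the outermost TSS, 0 to 4 of 10 genes had a peak in a sample, against 16.7% to 23.6% of all genes.

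Beside their paralogs, genes alike in sequence that serve mainly other tissues, some of the 10 stood higher. Cacna1c was above Cacna1s, the skeletal muscle channel, and Cacna1d in 8 of 8 samples, and Ryr2, with a mean of 10.5% over the 8 samples, was above Ryr3, with 1.43%. Jph2 was above Jph1 and Jph3, and Slc8a1 above Slc8a3, in 8 of 8 samples as well. The reverse held for Casq2, below the skeletal muscle calsequestrin Casq1 in 8 of 8 (means 15.1% and 33.6%), and for Camk2d, below Camk2g in 8 of 8 (14.1% and 20.98%). Ryr2 was above Ryr1 in 5 of 8, and Atp2a2 above Atp2a1 in 3 of 8 and above Atp2a3 in 4 of 8. Jph2 was above Jph4 in 6 of 8 (means 25.5% and 19.1%), and Camk2d above Camk2b in 6 of 8. Slc8a1 was above Slc8a2, and Camk2d above Camk2a, in 3 of 8. These are percents of windows that differ in length and all include 5 kb upstream, which weighs more in a short gene such as Casq1.

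Of 66 other genes of calcium handling, 60 of at least 5 kb were tested and 11 had an exact permutation p of 0.05 or less (all genes 7.73%), a count that fell to 4 without adult replicate 2 and to 5 to 7 without E14.5 replicate 2, either neonatal replicate or TAC replicate 2. In the first step 36.7% were higher and 6.67% lower, against 25.4% and 6.39% of all genes. In the second 11.7% were higher and 28.3% lower, against 14.8% and 21.2%, and in the third 3.33% were higher and 24 of 60 lower, against 6.05% and 22.9%. The largest first-step differences were in Calm2, a calmodulin gene, from 16.1% ± 7.73 to 34.3% ± 2.75 (SD, n = 2), and Cav3, the muscle caveolin, from 12.9% ± 6.81 to 28.8% ± 4.08, and downward in Cacna2d2, a channel subunit, and Ryr1. In the second step Tmem38a, a potassium-conducting channel of the reticulum, went from 5.22% ± 3.92 to 19.8% ± 4.47 and Cacnb1, a channel subunit, from 13.7% ± 1.17 to 21.04% ± 4.60, while Atp2b4, a calcium pump of the cell membrane, and Prkar1a were lower. In the third step Calm3 went from 43.0% and 51.8% in adults to 36.4% and 21.4% after TAC, and Casq1 from 33.4% and 52.0% to 24.7% and 24.2%, while Ppp3cb, a calcineurin subunit, and Ryr3 were higher, both at 1.49% or less. Their median cover was 8.11%, 9.47%, 9.53% and 6.97% at the 4 points, so the neonatal maximum of the 10 genes, which the CMC markers shared, was not found in the median of this wider list.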

How the data were processed

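5-hmC was profiled by hMeDIP sequencing in 8 CMC samples, 2 per point. As the authors described, reads were aligned to mm10 with BWA 0.7.4-r385, duplicates were marked with Picard, reads of low mapping quality were removed with bamtools, and HOMER findPeaks in histone mode called peaks per replicate against input. The deposited lists give each peak's position and strand, and their deposited score column is 1 throughout and gives no ranking. Per the file headers, 4 lists (both TAC replicates, and replicate 2 of the adult and neonatal points) give antibody tags normalised to the input and 4 give input tags normalised to the antibody library, so that this and the point cannot be told apart for E14.5 against TAC. Depth is unknown. The other 11 of the 19 samples, inputs and sh-control libraries, were not analysed here.

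Gene spans were those of curated RefSeq transcripts on GRCm38, the assembly of mm10. Promoter sequences were in the RefSeq table (build GRCm38.p6) for 7 of the 10 genes. Computations used Python 3.11.15, numpy 2.4.6, pandas 2.3.3 and pysam 0.24.0. Coverage and intersections were checked against bedtools and base by base on simulated lists, and the permutation test was checked on simulated data. Samples were grouped by their labelled point. The test was an exact permutation test over 105 divisions, p-values being adjusted by the Benjamini-Hochberg method over all genes tested. Groups of 2 were compared by whether replicates overlap. p-values measure the spread between these samples.

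The genes named are the 10 members, their paralogs and, per step, the 2 largest rises and 2 largest falls among other calcium handling genes whose replicates do not overlap. The members and lists were chosen with earlier results of these data known. Alternatives were the same number of peaks per list, GENCODE M21 gene spans, relative coverage, peak centres per 10 kb, the gene without its upstream part, no length filter, the replicate number as a block, other overlaps, and each sample left out. The background of genes of at least 50 kb, the 2 sides of the gene, the neonatal to TAC comparison and the count of genes with peaks nearer to the TTS were added after the data were seen.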

Additional observations from a re-analysis of the deposited data

How the results depend on the processing

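Of 199 counts (of the 10 genes, their regions, their paralogs and the other calcium handling genes) recomputed with 1 choice changed, 162 stayed within 1.5 times. GENCODE spans, the gene span alone and no length filter moved none beyond that. Some of the 199 could not move. Leaving out a sample does not touch a step between 2 other points and cannot lower the paralog count. Dropping the length filter leaves the p of each of the 10 genes as it was. The 162 is therefore no measure of how stable the results are. With the same number of peaks drawn from each list, 3 genes instead of 5 had p of 0.05 or less for coverage and 3 instead of 5 for position, 1 gene (Asph) was higher from neonatal to adult, and 2 regions instead of 10 were present at all 4 points. With relative coverage, 3 genes were higher and 2 lower from adult to TAC. With peak centres per 10 kb, 1 gene was lower from E14.5 to neonatal (Jph2, exact permutation p of 0.00952 with the first step turned), 1 higher from neonatal to adult (Cacna1c), and 7 instead of 11 other calcium handling genes passed. Regions at all 4 points numbered 1 when peaks had to share 50% of each other and 35 when they were widened by 500 bp. Replicate numbers did not pair the samples (correlations of replicate differences between points of -0.221 to 0.210). With the number as a replicate block, which leaves 24 divisions, 3 genes passed for coverage, against 4.99% of all genes. For position 2 passed, against 6.76% of the genes tested for it. With 1 sample left out, the counts ranged from 2 to 4 for coverage (2 without adult replicate 2), 2 to 5 for position (2 without E14.5 replicate 2), 4 to 11 for other calcium handling genes (4 without adult replicate 2), 6 in all for paralogs, 8 to 9 higher and 0 lower from E14.5 to neonatal, 0 to 1 higher and 7 to 9 lower from neonatal to adult, 0 to 2 higher and 5 to 7 lower from adult to TAC, 7 to 9 lower from neonatal to TAC, 7 to 8 nearer to the TTS, 8 lower on the TSS side and 4 to 6 on the TTS side, 7 to 9 genes with a common region at every point, and 10 to 25 regions at all 4 points (25 without TAC replicate 2, where the remaining list stands alone). The share over all genes also rose where a point was left with 1 sample. Without neonatal replicate 1, 46.5% of all genes were higher from E14.5 to neonatal and 39.7% lower from neonatal to adult. With all 8 samples these shares were 25.4% and 21.2%. Without both TAC replicates no p under 0.0667 is possible, and 6 of 10 genes reach it for coverage and 4 of 9 for position, against 10.1% of the genes tested for each. Of 258 p-values of single genes, 203 kept their side of 0.05 and, where the main p was 0.05 or less, their direction. From a main p of 0.05 or less, 46 rose above 0.05 and 1 changed direction, while 8 fell to 0.05 or less from above it. The 203 include genes whose main p was above 0.05 and stayed there, so they do not measure how well a p of 0.05 or less held. Where the main p was above 0.05, direction was not compared. The causes were not tested, and depth, which the lists do not give, limits every count.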
